A study of Mus musculus with 16 samples.

Results

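The genes described here encode the contractile and excitable parts of striated muscle. The list names 35 of them by what they encode, and the array measured each of the 35 among 18194 genes. RNA of the mouse embryonic palate was measured on 16 single-colour Affymetrix arrays, and each gene was read from its probe set with the highest mean. Mutants had the genotype Erk2 fl/fl; Wnt1-Cre, in which the gene for the kinase ERK2 is deleted in cells that express Cre, and controls were Erk2 fl/fl without Cre. Controls therefore also carried the floxed allele in both copies, although the sample titles call them wild-type. All animals were C57BL/6J. There were 3 mutant and 3 control arrays at embryonic day (E) 13.5, and 5 mutant and 5 control arrays at E14.5. The E14.5 arrays carried a batch label, with replicates 1 and 2 of each genotype in batch 1 and replicates 3, 4 and 5 in batch 2, while the E13.5 arrays carried none. The labels name palate mesenchyme tissue and the series' design text names primary mesenchymal cells, so which was lysed is unsure. The number of embryos in an array is not given and their sex was not determined, so a p-value here reflects the spread among these arrays alone, which may be technical. The genotypes are given as labelled.

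Striated muscle contracts when thick filaments of myosin pull on thin filaments of actin inside a repeating unit, the sarcomere. Calcium starts this by binding troponin on the thin filament, and titin and nebulin are very long proteins of the unit. The nerve's acetylcholine opens receptors in the muscle membrane, and the calcium channel of the membrane then opens the ryanodine receptor of the internal calcium store. The muscles of the soft palate and tongue arise from mesoderm, whereas the Wnt1-Cre driver is active in neural crest cells, which give rise to palatal mesenchyme and to the connective tissue of those muscles. Embryonic muscle fibres express embryonic and neonatal myosins (Myh3 and Myh8), the gamma form of the acetylcholine receptor (Chrng) and cardiac actin (Actc1) before the adult forms replace them.

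Promoters of 30 of the 35 genes stood in the RefSeq table used here (GRCm38.p6, 33 entries, since some genes have more than 1). The 5 genes that have no entry are Chrnd, Neb, Tnni2, Tnnt3 and Xirp1. The 5 promoters below are shown because their genes span the receptor, the thin filament and the maintenance of the sarcomere, and because they hold the motifs that were searched. Each is the 250 bases before the annotated start, written 5′ to 3′ on the gene's strand, and capitals mark matches to the E-box form CAGCTG, the CArG box, the MEF2 site or TATAAA. Chrna1, the alpha subunit of the acetylcholine receptor, lies on the minus strand at chr2:73580339-73580588. Chrng lies on the plus strand at chr1:87205561-87205810. Klhl41, a protein that maintains the thin filament, lies on the plus strand at chr2:69669870-69670119. Acta1, skeletal actin, lies on the minus strand at chr8:123894776-123895025, and Actc1 on the minus strand at chr2:114052876-114053125.
Chrna1: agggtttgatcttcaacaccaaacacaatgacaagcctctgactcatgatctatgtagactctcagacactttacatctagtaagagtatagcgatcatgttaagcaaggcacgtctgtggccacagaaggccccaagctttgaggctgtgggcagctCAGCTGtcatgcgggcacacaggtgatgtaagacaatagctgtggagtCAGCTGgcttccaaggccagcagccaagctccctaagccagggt
Chrng: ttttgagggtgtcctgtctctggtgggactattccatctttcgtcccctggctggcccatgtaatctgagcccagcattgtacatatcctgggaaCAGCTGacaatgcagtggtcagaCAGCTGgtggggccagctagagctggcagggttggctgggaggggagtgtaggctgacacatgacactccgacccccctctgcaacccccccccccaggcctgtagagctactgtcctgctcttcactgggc
Klhl41: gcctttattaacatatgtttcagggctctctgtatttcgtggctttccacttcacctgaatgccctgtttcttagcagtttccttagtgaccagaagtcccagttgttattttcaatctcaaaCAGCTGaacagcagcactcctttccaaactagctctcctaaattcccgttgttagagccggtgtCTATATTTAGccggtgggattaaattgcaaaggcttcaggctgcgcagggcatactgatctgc
Acta1: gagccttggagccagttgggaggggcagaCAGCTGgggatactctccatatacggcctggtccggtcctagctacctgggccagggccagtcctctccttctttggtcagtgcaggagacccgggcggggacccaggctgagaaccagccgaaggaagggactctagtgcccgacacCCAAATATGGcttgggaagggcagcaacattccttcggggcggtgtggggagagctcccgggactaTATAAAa
Actc1: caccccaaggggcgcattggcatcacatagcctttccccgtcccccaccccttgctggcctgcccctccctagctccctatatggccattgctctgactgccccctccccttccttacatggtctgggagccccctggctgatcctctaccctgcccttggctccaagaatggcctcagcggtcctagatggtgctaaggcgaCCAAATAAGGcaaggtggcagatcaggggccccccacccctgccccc

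The E-box CANNTG, the sequence that myogenic factors such as MyoD bind, was found on either strand in 29 of the 33 entries (87.9%), against 66.2% of all 32851 entries of the table. Its form CAGCTG, which is a subset of CANNTG, was in 16 of 33 (48.5%), against 13% of all entries. Both receptor promoters shown above hold it at a pair of places, beginning 92 and 44 bases before the start in Chrna1 and 155 and 132 bases before it in Chrng. The CArG box, bound by serum response factor, was in 3 of 33 (9.09%, against 1.47%), namely Acta1, Actc1 and Myom1. The MEF2 site was in 4 of 33 (12.1%, against 2.92%), namely Casq2, Klhl41, Myh8 and Ttn. The MCAT element CATTCC was in 8 of 33 (24.2%, against 12.6%) and TATAAA in 6 of 33 (18.2%, against 12.4%). These matches describe letters in a window, and they were not compared by a test.

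The deposited values were log2 expression values. A gene was tested where it reached a log2 value of 4 in at least 3 arrays, which 29 of the 35 genes and 11116 of all genes did. The 6 that were not tested were Xirp1, Ankrd1, Ckm, Chrnd, Cacna1s and Ryr1, and none of them reached 4 in any array. Several of these are parts of the excitation machinery: Cacna1s, the membrane calcium channel, lay between 1.13 and 2.21, Ryr1, the ryanodine receptor, between 1.05 and 3.35, and Chrnd, the delta receptor subunit, between 1.31 and 3.99. Cav3 passed the filter through 3 mutant arrays and no control array. Myom1, Chrng, Tnnt3 and Mybpc1 reached 4 in fewer than 3 control arrays, so they passed only with mutant arrays counted. For each genotype comparison the number of genes higher is therefore given over all 35 and over the tested genes. Counts by p cover the tested genes alone, and these include Cav3, Myom1, Chrng, Tnnt3 and Mybpc1. Ckm, muscle creatine kinase, which supplies ATP to the filaments, lay between 1.43 and 3.37. Arrays of E13.5 had medians over all probe sets of 3.39 to 3.44 and those of E14.5 had 1.63 to 1.66, so genotypes were compared within a stage and the stages are treated separately.

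**Figure D1:**
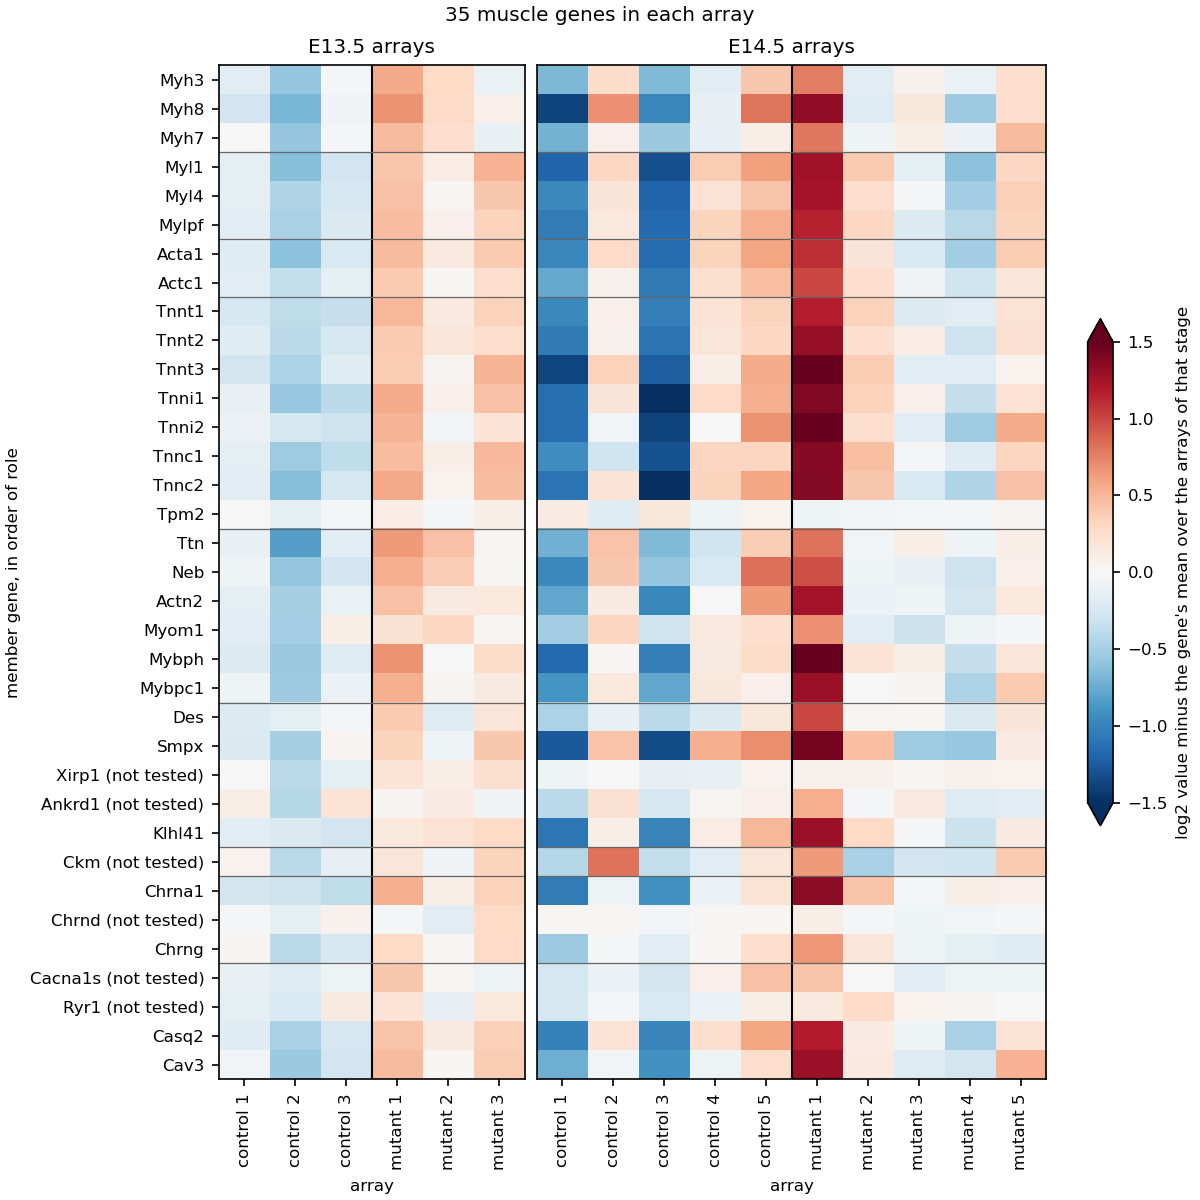
The 35 genes (rows, in order of role) in the 16 arrays (columns), with colour giving the log2 value minus that gene's mean over the arrays of the same stage, so that colour does not compare stages or genes. Mutant arrays are the warmer ones at E13.5, and at E14.5 mutant 1 is warm and controls 1 and 3 are cold for most genes, with Tpm2 as an exception.

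At E13.5 the muscle genes were measured at higher values in mutants than in controls throughout the list, but none passed the test. All 35 genes had a higher mean in the 3 mutants than in the 3 controls, by a median of 0.52 (log2), against a median of -0.01 and 45.8% higher over all 18194 genes. In 23 of the 35 every mutant array lay above every control array, which 6.9% of all genes did. Among the 29 tested genes the differences ran from 0.12 in Tpm2 to 0.74 in Ttn. With limma and Benjamini-Hochberg adjustment over 11116 genes 0 of 29 were called at an adjusted p of 0.05, and the smallest adjusted p was 0.50, while 0.099% of all genes tested were called. At an unadjusted p of 0.05, 1 of the 29 was higher (Ttn), against 1.68% of all genes, and 26 of the 29 were with the E13.5 arrays alone in the fit. Since RNA came from bulk samples, a different number of muscle cells and a different amount of RNA per muscle cell cannot be told apart here, nor at E14.5.

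Of the thick filament, Myh3, the embryonic myosin heavy chain, measured 8.65, 8.38 and 7.98 in E13.5 mutants 1 to 3 and 7.91, 7.50 and 8.05 in controls 1 to 3. Mutant 3 lay below control 3, so the groups overlapped, and the difference was 0.52 ± 0.30 (SE, n = 3 and 3, limma adjusted p = 0.61). Mylpf, the fast regulatory light chain, measured 9.01, 8.62 and 8.88 in mutants and 8.37, 8.05 and 8.32 in controls, without overlap, a difference of 0.59 ± 0.44 (SE). The light chains Myl1 (0.71 ± 0.50) and Myl4 (0.58 ± 0.43) did not overlap either, and of the heavy chains Myh8 did not (0.69 ± 0.54) and Myh7 did (0.41 ± 0.27). Ttn, which encodes titin, measured 6.81, 6.61 and 6.20 in mutants and 6.06, 5.34 and 6.01 in controls. Control 2 was the low array, and the difference was 0.74 ± 0.32 (a fold of 1.67, limma unadjusted p = 0.037, adjusted p = 0.50).

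Of the thin filament, Actc1 measured 10.71, 10.34 and 10.59 in mutants and 10.15, 9.95 and 10.18 in controls, a difference of 0.45 ± 0.36 without overlap. Acta1 measured 8.21, 7.88 and 8.13 in mutants against 7.56, 7.12 and 7.50 in controls (0.68 ± 0.45). Mutant 2 was the lowest mutant and control 2 the lowest control for both actins. Troponins, the calcium switch, gave the same order: 7 of the 8 genes for troponin and tropomyosin did not overlap. Tnnc1, the slow calcium-binding subunit, measured 8.33, 7.97 and 8.35 in mutants and 7.73, 7.33 and 7.49 in controls (0.70 ± 0.41, limma adjusted p = 0.61). Tnnt1, slow troponin T, measured 8.65, 8.30 and 8.50 in mutants against 7.89, 7.76 and 7.80 in controls (0.66 ± 0.37). The fast calcium-binding subunit Tnnc2 differed by 0.71 ± 0.52. Tpm2, beta-tropomyosin, stood apart from the troponins, with 8.67, 8.54 and 8.65 in mutants and 8.55, 8.41 and 8.54 in controls, overlapping (0.12 ± 0.08).

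Of the excitation genes, Chrna1 measured 5.95, 5.51 and 5.76 in mutants against 5.15, 5.11 and 5.04 in controls. The 3 controls lay close together below all mutants, and the difference was 0.64 ± 0.34 (limma adjusted p = 0.57). Chrng measured 4.60, 4.31 and 4.58 in mutants and 4.34, 3.90 and 4.04 in controls, so mutant 2 lay just below control 1 (0.40 ± 0.21, limma adjusted p = 0.57). Casq2, which stores calcium, differed by 0.62 ± 0.42 and Cav3, the caveolin of the muscle membrane, by 0.59 ± 0.36, both without overlap. The membrane calcium channel and the ryanodine receptor, below the filter, were 0.24 and 0.16 higher in mutants. Desmin, the intermediate filament that links sarcomeres, overlapped, with Des values of 5.47, 4.88 and 5.26 for mutants against 4.87, 4.92 and 5.05 for controls (0.26 ± 0.24).

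The E13.5 arrays were ordered alike within each genotype for most genes. Mutant 1 held the highest value of the 6 arrays for 23 of the 29 tested genes, and control 2 the lowest for 25. The mean over the 29 genes was 6.56, 6.22 and 6.37 in mutants 1 to 3 and 5.96, 5.63 and 5.92 in controls 1 to 3. Without any single E13.5 array the median difference of the 29 genes stayed between 0.49 and 0.70, and all 29 remained higher in mutants. The size of the error depended on which arrays gave the spread. With the E13.5 arrays alone the standard errors were 0.08 for Tnnt2, 0.09 for Tnnt1 and 0.06 for Klhl41. Ttn and Myh3 spread more at E13.5, with SDs of 0.31 and 0.33 in mutants and 0.40 and 0.29 in controls. Tnnt2 had 0.10 in both groups. In the fit of the E13.5 arrays alone 26 of the 29 genes were higher at an unadjusted p of 0.05, against 2.96% of all genes. The smallest adjusted p of a muscle gene was then 0.072, which still missed the threshold. The fit over all 16 arrays took its spread mostly from the E14.5 arrays, where the 29-gene mean varied with an SD of 0.60 within groups, against 0.17 at E13.5.

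**Figure D2:**
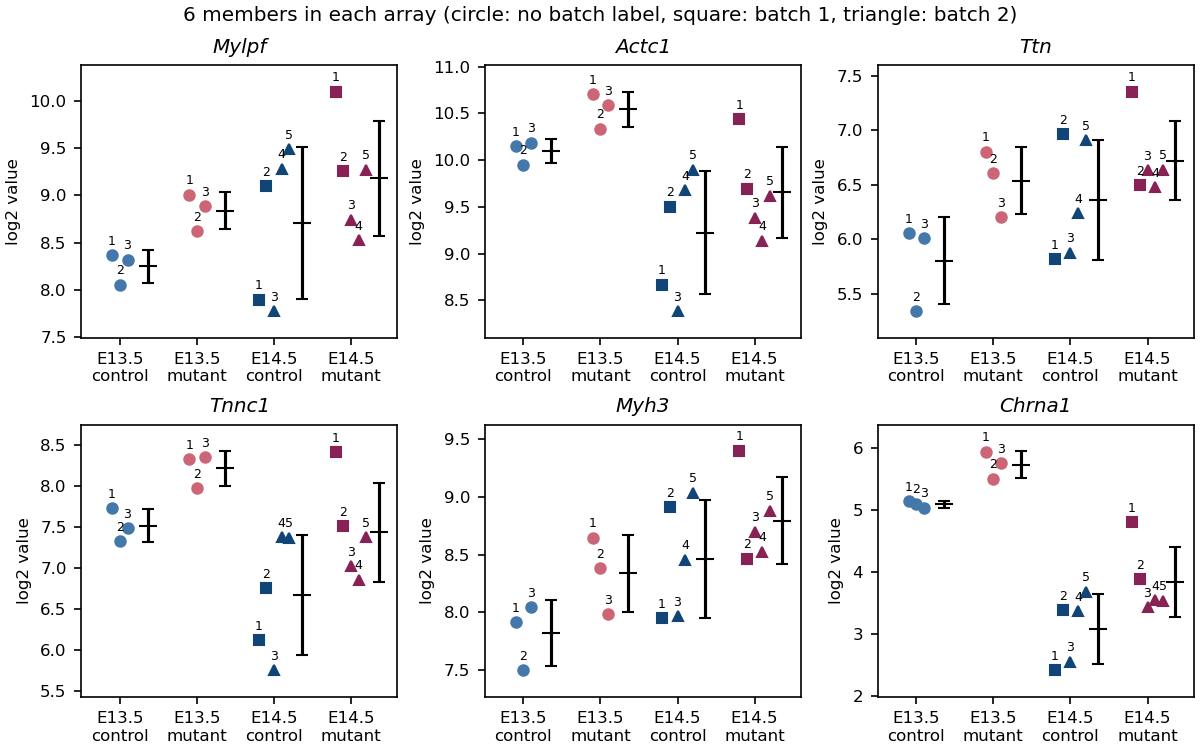
Log2 values (vertical axes) of 6 genes in every array by group, with the replicate number above each point and, beside each group, its mean and SD (n = 3 at E13.5, n = 5 at E14.5). Mutants 1 to 3 of Mylpf, Actc1, Ttn, Tnnc1 and Chrna1 lie above all E13.5 controls, while at E14.5 controls 1 and 3 lie low and mutant 1 lies high.

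At E14.5 the means again differed in the same direction for most genes, but the arrays of the groups overlapped in every one. Of the 35 genes 32 had a higher mean in the 5 mutants, by a median of 0.41, against 0.01 and 52.4% higher over all genes. In 0 of the 35 did every mutant array lie above every control array, which 2.02% of all genes did. Of the 29 tested genes 28 were higher, with Tpm2 at -0.04 ± 0.06 the exception, and limma called 0 of them (smallest adjusted p 0.15), while 2.63% of all genes tested were called. At an unadjusted p of 0.05, 5 of the 29 were higher, namely Chrna1, Tnnc1, Myh7, Des and Cav3, against 10.3% of all genes. Cav3 had passed the filter through mutant arrays alone, so its place in this count is not separate from its high mutant values.

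The E14.5 means rested on 3 arrays. Mutant 1 held the highest value of the 10 arrays for 28 of the 29 tested genes, Tpm2 again excepted. Controls 1 and 3 held the lowest values of the 10 arrays for 26 of the 29. The mean over the 29 genes was 6.65, 5.67, 5.43, 5.20 and 5.73 in mutants 1 to 5 and 4.58, 5.65, 4.56, 5.60 and 5.93 in controls 1 to 5, so controls 2, 4 and 5 lay within the range of mutants 2 to 5 or above it. The mean of controls 2, 4 and 5 exceeded that of mutants 2 to 5 for 23 of the 29 genes. In fits without controls 1 and 3, an alternative chosen after the data were seen, 12 of the 29 genes were higher in mutants and the median difference was -0.02. Without mutant 1 as well, 6 of 29 were higher and the median was -0.20. These 3 arrays were picked by the same values, so the fits without them show how much the difference rests on them and give no better estimate of it.

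Chrna1 measured 4.81, 3.89, 3.44, 3.55 and 3.54 in E14.5 mutants 1 to 5 and 2.42, 3.39, 2.56, 3.37 and 3.69 in controls 1 to 5. Mutants 2 to 5 and controls 2, 4 and 5 shared a range, and the difference was 0.76 ± 0.26 (limma unadjusted p = 0.012, adjusted p = 0.15). It was 1.45 within batch 1, 0.30 within batch 2, 0.51 without mutant 1, 0.33 without controls 1 and 3, and 0.13 without all 3. Tnnc1 measured 8.42, 7.51, 7.02, 6.86 and 7.37 in mutants and 6.12, 6.75, 5.75, 7.37 and 7.37 in controls 1 to 5. The difference was 0.76 ± 0.32 (limma adjusted p = 0.24), with 1.53 within batch 1 and 0.25 within batch 2, and it was 0.02 without the 3 arrays.

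Myh7, the slow myosin heavy chain, measured 5.81, 4.94, 5.10, 4.93 and 5.49 in mutants and 4.30, 5.09, 4.46, 4.88 and 5.11 in controls (0.49 ± 0.21, limma adjusted p = 0.25). Mutants 1 and 5 lay above all controls, and the difference was 0.08 without the 3 arrays. Des measured 3.42, 2.45, 2.43, 2.20 and 2.61 in mutants and 1.94, 2.30, 2.02, 2.19 and 2.58 in controls (0.41 ± 0.19, limma adjusted p = 0.28). Only mutants 1 and 5 exceeded the highest control, and at these values Des lies below the filter's value of 4 in all 10 E14.5 arrays.

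Several of the genes with the highest values had a positive difference over all arrays and a negative one without the 3. Actc1, cardiac actin, measured 10.44, 9.69, 9.39, 9.14 and 9.62 in mutants and 8.67, 9.50, 8.38, 9.68 and 9.90 in controls, a difference of 0.43 ± 0.28 over all arrays and -0.23 without the 3. Mylpf measured 10.10, 9.26, 8.74, 8.53 and 9.27 in mutants and 7.90, 9.10, 7.77, 9.28 and 9.49 in controls, 0.47 ± 0.34 over all arrays and -0.33 without the 3. Myh3 measured 9.39, 8.47, 8.70, 8.52 and 8.88 in mutants and 7.95, 8.91, 7.97, 8.46 and 9.03 in controls, 0.33 ± 0.24 over all arrays and -0.16 without the 3. In each of these genes control 5 exceeded mutants 2 to 5. Myl1, an essential light chain, went from 0.49 ± 0.39 to -0.43 and Acta1 from 0.37 ± 0.35 to -0.44.

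**Figure D3:**
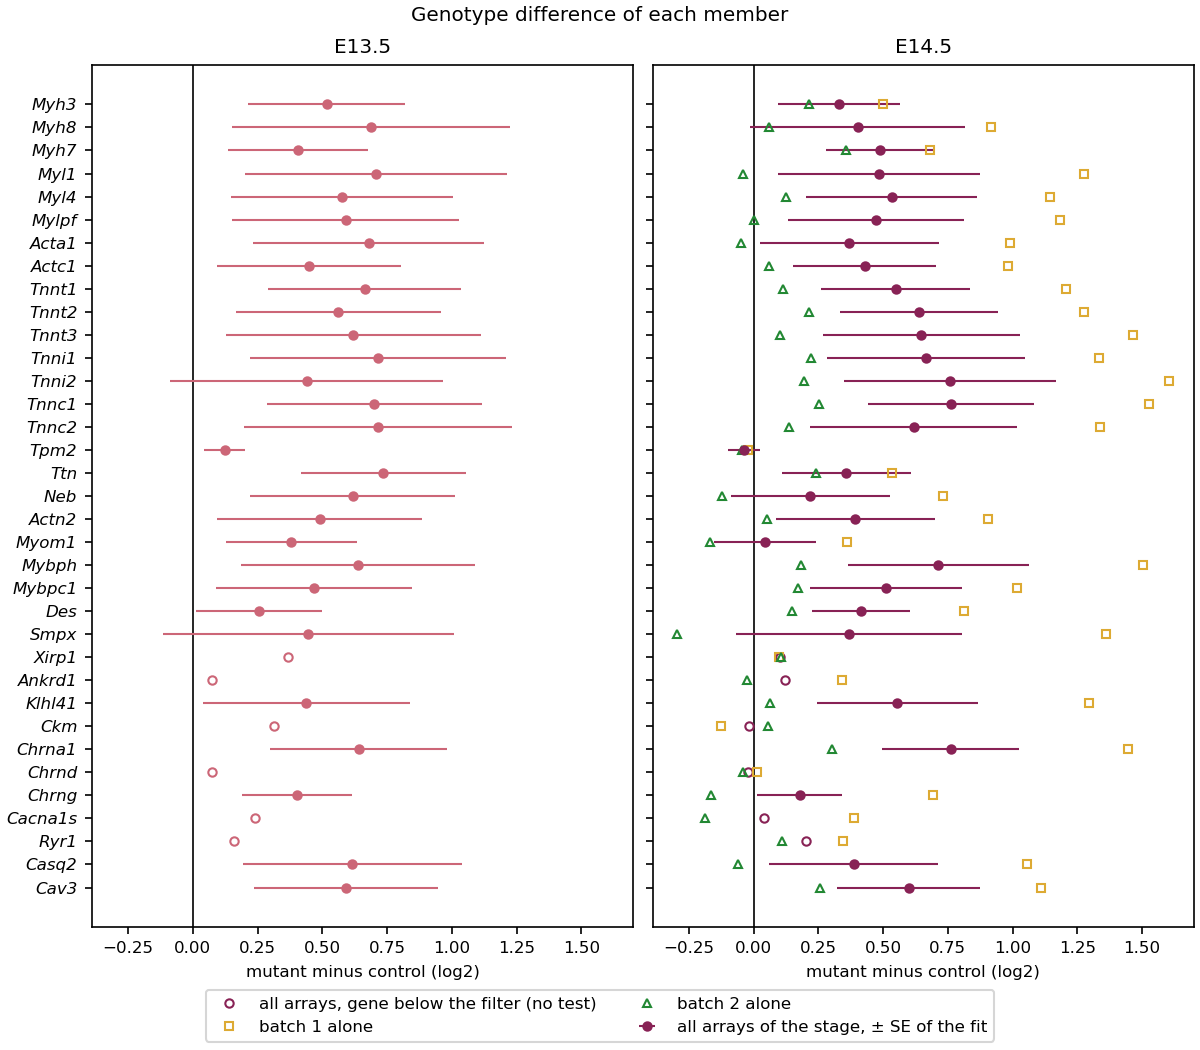
Mutant minus control difference (horizontal axis, log2) of each gene at E13.5 and E14.5, with the standard error of the fit for tested genes and open circles for the 6 below the filter. At E14.5 squares (batch 1 alone) and triangles (batch 2 alone) are drawn beside the mean over all arrays, and batch 1 lies to the right for most genes.

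The batches differed in size of the genotype difference. Within batch 1, which held mutants 1 and 2 and controls 1 and 2, 33 of the 35 genes were higher in mutants, by a median of 0.99. Within batch 2, which held mutants 3 to 5 and controls 3 to 5, 24 of 35 were higher, by a median of 0.10. Over all genes 55.2% were higher in batch 1 (median 0.018) and 49.3% in batch 2 (median -0.0021). The median over the 8 genes for troponin and tropomyosin was 1.34 in batch 1 and 0.17 in batch 2, and that over the 3 myosin light chains 1.18 and 0.00037. Smpx, a small protein of muscle under stretch, was 1.36 higher in batch 1 and 0.29 lower in batch 2 (-0.29). Batch 1 contained both mutant 1 and control 1, batch 2 contained control 3, and whether the batches differ otherwise was not tested.

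The genotype difference was also compared between the stages. It was less positive at E14.5 for 18 of the 29 tested genes and more positive for 11, with a median change of -0.08, and limma called 0 of 29 (smallest adjusted p 0.60, and 0 at an unadjusted p of 0.05), while 0.117% of all genes tested were called. At this spread a difference between stages was not detectable, which does not show that the stages were alike.

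Some muscle genes followed another order of arrays than the rest. This was seen in the values and has no test. The 2 pairs of arrays below were picked with the values in view, and the other pairs within groups are not given. In E13.5, mutant 2 exceeded mutant 3 for 6 of the 29 tested genes, namely Ttn, Myh3, Myh7, Neb, Myom1 and Myh8, and was lower for the other 23. At E14.5 control 2 exceeded control 4 for the same 6 genes, and was lower for 18 of the other 23. Control 2 was in batch 1 and control 4 in batch 2, so this pair also differed in batch label. Ttn was 0.40 higher in mutant 2 than in mutant 3 and 0.73 higher in control 2 than in control 4, while Tnnc1 was lower in both, at -0.38 and -0.62. The 6 genes encode the 3 myosin heavy chains of the list, the giant proteins titin and nebulin, and myomesin, which ties the thick filaments together at the M line. The other 3 genes for crosslinking and thick filament proteins were lower in the first pair, Actn2 at -0.032, Mybpc1 at -0.098 and Mybph at -0.27.

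**Figure D4:**
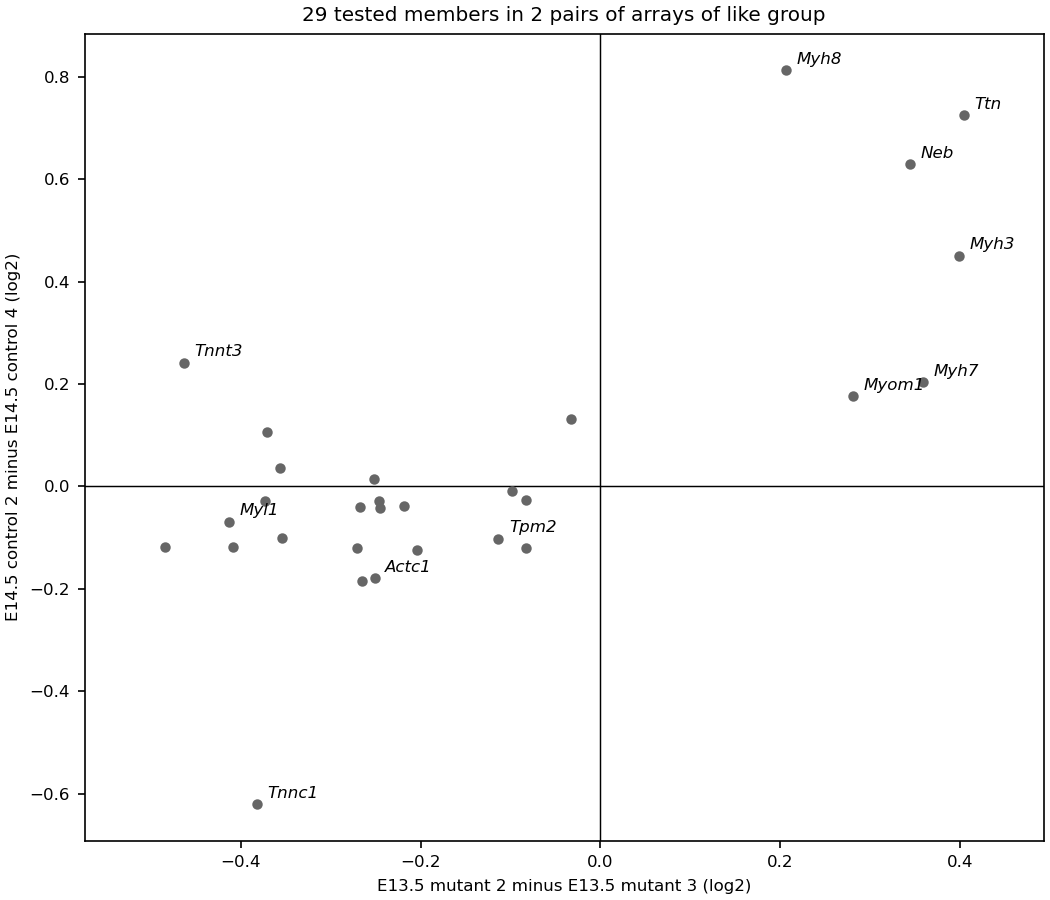
Each point is 1 of the 29 tested genes, with E13.5 mutant 2 minus mutant 3 on the horizontal axis and E14.5 control 2 minus control 4 on the vertical axis (log2, 1 array each). Both pairs were picked with the values in view, and the E14.5 pair also differs in batch label. The 6 genes for myosin heavy chains, titin, nebulin and myomesin lie alone at the upper right, and Tnnc1 lies lowest.

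Between the stages the value distributions shifted, so stage and processing cannot be told apart, and each change is given against all genes. As deposited, the 29 tested genes were lower at E14.5 by a median of -0.37 in controls and -0.40 in mutants, against -0.63 and -0.56 over all genes. Limma called 11 of 29 in controls, where 86.5% of all genes were called, and 12 of 29 in mutants, where 85.3% were. When each array was centred on its median, the medians were 1.38 and 1.39, against 1.12 and 1.23 over all genes. In those fits 22 and 24 of the 29 were called, where 10171 and 10238 of all 11116 genes tested were. The direction of most genes therefore depended on the scaling, and 3 tested genes were lower at E14.5 in both genotypes under all 3 scalings, which were the deposited values, centring and quantile normalization.

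Des was one of these, at -2.72 as deposited, -0.97 centred and -1.08 after quantile normalization in controls, and it passed limma's test under each in both genotypes. Mybph, a myosin-binding protein, was at -2.20, -0.45 and -0.77 in controls, and Chrna1 at -1.99, -0.24 and -0.47. Neither passed in controls when centred or after quantile normalization. In mutants neither passed when centred, but both did after quantile normalization (Mybph -1.12, limma adjusted p = 0.014, and Chrna1 -0.81, adjusted p = 0.016). Chrng, the fetal receptor subunit, was lower as deposited (-2.05) and centred (-0.30) and could not be tested after quantile normalization, since it fell below the filter. In the other direction, Myh3, Myh8, Mylpf, Tnnt2, Tpm2 and Ttn were higher at E14.5 under all 3 scalings in both genotypes. Myh8, the neonatal heavy chain, was 0.81, 2.56 and 2.33 higher in controls, and Tpm2 0.47, 2.21 and 0.66 higher. Tpm2 passed the test under each scaling in both genotypes, and Myh8 did so under centring and quantile normalization and not as deposited (limma adjusted p = 0.13 in controls).

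Other probe sets of the same genes, which share a target with those used, mostly pointed the same way. The 35 genes had 56 probe sets in all, and of the 21 not used, 5 reached the filter. All 5 were higher in mutants at E13.5, and 4 of them at E14.5. A second probe set for Tnnt2 gave 0.61 at E13.5 and 0.69 at E14.5, beside 0.56 and 0.64 for the one used. A second for Ttn gave 0.68 and 0.37, beside 0.74 and 0.36. For Tnni2 the second was smaller at E14.5, with 0.47 and 0.29 beside 0.44 and 0.76. The others were for Tpm2, with 0.12 and -0.035 in one and 0.16 and 0.044 in another, beside 0.12 and -0.036. The last of these therefore pointed the other way from the set used at E14.5.

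Other muscle genes were read from lists written with earlier results of these data known. Of 16 tested myogenic regulators 9 were higher in mutants at E13.5 (median 0.08, 0 called) and 11 at E14.5 (median 0.22). Among them Myod1, the factor that commits cells to muscle, was 0.57 ± 0.25 higher at E13.5 and 0.55 ± 0.19 higher at E14.5 (limma adjusted p = 0.50 and 0.15). Msc, a regulator of branchial muscle, differed by 0.65 ± 0.28 and 0.66 ± 0.22 (adjusted p = 0.50 and 0.13). Six4, the regulator with the smallest p at E13.5, was lower in mutants there, at -0.31 ± 0.12 without overlap (limma adjusted p = 0.44). The 1 regulator that limma called was Mef2c, which fell by 0.35 at E14.5 (adjusted p = 0.014), and Mef2c is also expressed outside muscle. The mean of the 16 regulators followed the arrays of the muscle genes at E14.5, with mutant 1 the highest at 5.35 and controls 1 and 3 the lowest at 4.36 and 4.48.

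Of 19 other sarcomere genes tested, 15 were higher at each stage (medians 0.24 and 0.31), and 0 were called. Of 16 other excitation genes tested, 11 were higher at E13.5 and 10 at E14.5 (medians 0.15 and 0.08), and 0 were called. Chrnb1, the beta subunit of the receptor, was 0.59 ± 0.18 higher at E14.5 (limma adjusted p = 0.096), and Rapsn, which clusters the receptor, was 0.29 ± 0.09 higher at E13.5 (adjusted p = 0.36). Other genes of the list were lower, with Hrc at -0.50 ± 0.13 at E14.5 (limma adjusted p = 0.066). Dmd (-0.37 ± 0.12, adjusted p = 0.36) and Lrp4 (-0.36 ± 0.12, adjusted p = 0.38) were lower at E13.5, both without overlap. Of the 16, 2 were higher and 3 lower at an unadjusted p of 0.05 at each stage. Over all genes these shares were 1.68% and 7.85% at E13.5, and 10.3% and 7.02% at E14.5. Of 7 muscle energy genes tested, 3 were higher at each stage (medians -0.06 and -0.07), and 1 was called at E14.5, Fabp3, a fatty acid carrier, which fell by 0.69 (adjusted p = 0.033).

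Markers of heart muscle, which shares several of the 35 genes, were low in every array. None of the 12 on the array reached the filter, and Myh6, the alpha myosin of heart, and Nppa, a hormone of heart muscle, did not exceed 1.95 and 1.63 in any array. Of 10 smooth muscle markers 6 were tested, and Myh11, Cnn1, Actg2 and Lmod1 stayed below the filter (at most 3.26). The mean of the 6 lay between 5.57 and 5.80 in E13.5 mutants and between 5.62 and 5.74 in E13.5 controls, and between 5.07 and 5.24 in E14.5 mutants and between 4.96 and 5.12 in E14.5 controls. In E14.5 controls 1 and 3, the low arrays of the muscle genes, it stood at 5.02 and 5.10, and mutant 1 was the highest E14.5 array for this list too, at 5.24. Of the 6 tested, 2 were higher and 4 lower in mutants at E13.5 (median -0.15, 0 called). At E14.5 4 were higher and 2 lower (median 0.06). Mylk was lower without overlap at both stages (-0.29 ± 0.09 and -0.20 ± 0.07, limma adjusted p = 0.35 and 0.15). Acta2, smooth muscle actin, was 0.56 ± 0.15 higher in E13.5 mutants (limma adjusted p = 0.24). At E14.5 Tagln, an actin-binding protein of smooth muscle and other contractile cells, rose by 0.53 in mutants (limma adjusted p = 0.011).

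Markers of other cells also differed with genotype, for several lists at 1 stage more than at the other. The 14 palatal mesenchyme markers were all measured, and their mean was 8.49 to 8.56 across E13.5 mutants and 8.64 to 8.78 across E13.5 controls. At E13.5 14 of 14 were lower in mutants (median -0.16, 0 called), as were 7612 of the 11116 genes tested (median -0.04). At E14.5 8 of the 14 were lower (median -0.04), and limma called 1 lower, Foxf1 (-0.34, adjusted p = 0.028). Of 11 neuron markers 10 were higher in E13.5 mutants (median 0.20, 0 called). Their mean ran from 4.84 to 5.82 across E13.5 mutants and from 4.78 to 5.00 across E13.5 controls, and mutant 2 was the highest. At E14.5 8 of the 11 were higher (median 0.13, 0 called). Of 10 cartilage markers 9 were higher in E13.5 mutants (median 0.58, 0 called). Of these, 6 were higher at an unadjusted p of 0.05, where 1.68% of all genes were. Their mean ran from 6.01 to 6.39 across E13.5 mutants and from 5.37 to 6.18 across E13.5 controls. At E14.5 5 of the 10 were higher and 5 lower (median 0.0042), and limma called 1 lower, Hapln1 (-0.59, adjusted p = 0.037). At E14.5 the 20 oral epithelium markers were all higher in mutants, 11 of them called (2.63% of all genes in either direction). Their mean ran from 7.21 to 7.52 across E14.5 mutants and from 6.81 to 6.95 across E14.5 controls. At E13.5 17 of the 20 were lower (median -0.05, 0 called). Of 9 bone markers 8 were lower in E13.5 mutants (median -0.44, 0 called, 6 at an unadjusted p of 0.05, where 7.85% of all genes were lower), and their mean ran from 4.51 to 5.12 across mutants and from 5.27 to 5.48 across controls. At E14.5 all 9 were lower (median -0.52) and limma called 4 of them, where 128 of all 11116 genes tested were called lower. Of 8 tendon and connective tissue markers 6 were lower at E14.5 and limma called 1 of them, Mkx (-0.30, adjusted p = 0.045). Of 10 endothelium markers 0 were called at either stage. At E14.5 4 of these 10 were lower at an unadjusted p of 0.05, against 7.02% of all genes. The part of these other cells in the values of the muscle genes was not tested.

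**Figure D5:**
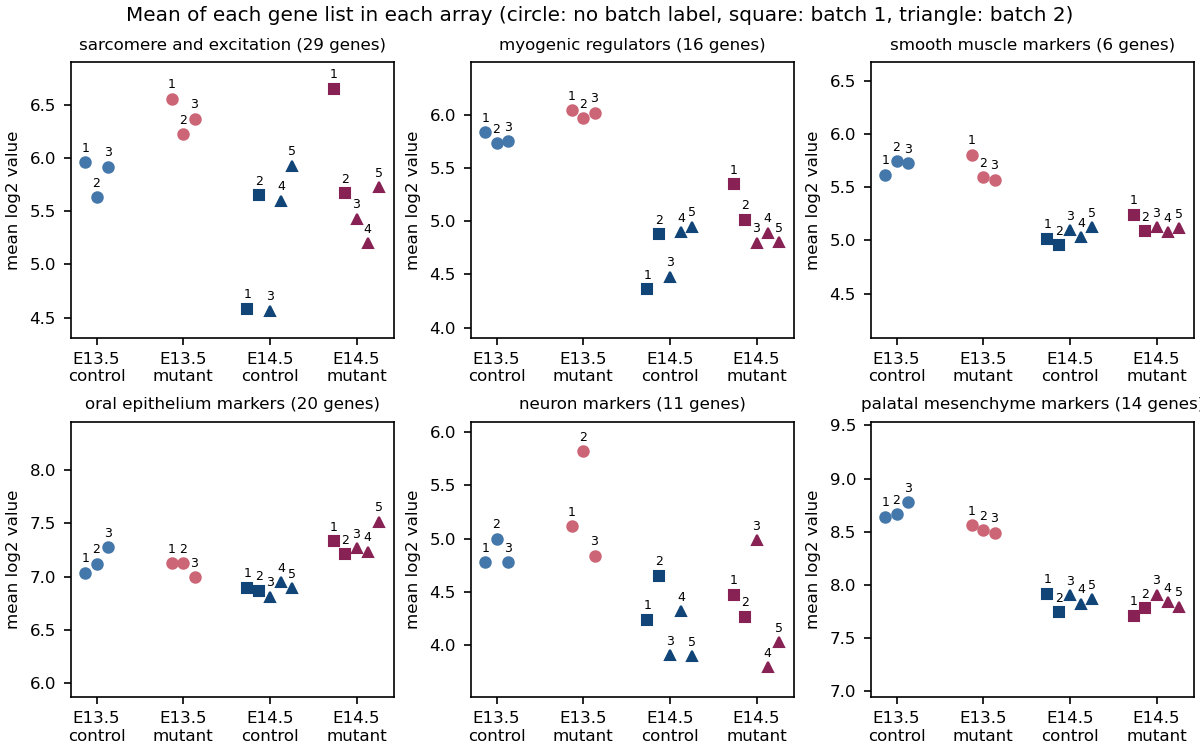
Mean log2 value of each of 6 gene lists (vertical axes, all of the same span) in every array by group, with the replicate number above each point. The muscle genes and the myogenic regulators are lowest in E14.5 controls 1 and 3 and highest among the E14.5 arrays in mutant 1, while controls 1 and 3 are not both lowest in the other 4 lists. Mutant 1 is also the highest E14.5 array for the smooth muscle list.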

How the data were processed

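RNA of 16 samples was hybridised to single-colour Affymetrix arrays. The deposited values are log2 expression values of 45101 probe sets, made by the authors with GCRMA, per the submitters' processing notes. Neither its version nor a common normalization of the stages is stated in the notes or labels. The platform annotation gave 1 gene for 34958 probe sets, several for 932 and none for 9211. Each gene was read from its probe set with the highest mean, giving 18194 genes, and 11116 that reached a log2 value of 4 in at least 3 arrays were tested.

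The values were fitted with limma 3.58.1 in R 4.3.3 (lmFit, eBayes), with 4 group means, the batch label within E14.5 and Benjamini-Hochberg adjustment over the 11116 genes at 0.05. The scripts were tested on simulated data. Arrays give no read depth, and their number limits the precision. Named genes were the 10 tested genes with the highest mean, the 4 with the smallest p in each genotype comparison and, in each other list, up to 4 with the smallest p. Genes described outside this rule were picked with their values in view. The members and lists were chosen with earlier results of these data known. Replicate numbers did not pair the samples: deviations of same-numbered arrays correlated at -0.45 to 0.17. Alternatives covered the filter, probe sets, scaling, batch, block, weights, variance model and left-out arrays. Promoters come from RefSeq (GRCm38.p6). Figures were drawn with matplotlib 3.10.9.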

Additional observations from a re-analysis of the deposited data

Results flagged for a closer look

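In 60 groups of 5 E14.5 arrays (29 genes and their mean, in each genotype), 3 had an array far from the others, by a gap of more than 0.71 of the group's range, and chance alone is expected to give about 1 in 20. All 3 were mutant 1. Ttn stood at 7.36 there, with the nearest other mutant at 6.64. Actn2, the Z disc crosslinker, stood at 5.70, with the nearest at 4.61. Mybph stood at 5.07, with the nearest at 3.62. The 3 genes share this array, so they are not separate signs of it.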

How the results depend on the processing

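No muscle gene was called in either genotype comparison, or in the difference between stages, under any alternative. The E13.5 median kept its direction under all of them, at 0.49 to 0.70 when a replicate was left out. At E14.5 leaving out 1 replicate gave medians of 0.23 to 0.69 with 26 to 28 genes higher, and batch 1 alone gave 1.11. Without controls 1 and 3 there were 12 genes higher, and without mutant 1 too there were 6 with a median of -0.20. The difference between stages had a median of 0.55 with batch 1 alone and -0.76 without the 3 arrays, and -0.35 to 0.18 when a replicate was left out.

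Single differences at E14.5 were followed only for the genes of the naming rule. Those that turned were, in batch 2 alone, Myl1 (-0.040), Acta1 (-0.047) and Chrng (-0.16), and, without control 1, Tpm2 (0.0092, and -0.086 without control 2, its range when a replicate was left out). Without controls 1 and 3 they were Actc1 (-0.059), Tpm2 (0.059), Mylpf (-0.14), Myh3 (-0.021), Myl1 (-0.23), Acta1 (-0.25), Tnnc2 (-0.10), Myl4 (-0.044), Ttn (-0.0084) and Chrng (-0.017). Without mutant 1 as well they were Actc1 (-0.23), Tpm2 (0.054), Mylpf (-0.33), Myh3 (-0.16), Myl1 (-0.43), Acta1 (-0.44), Tnnt1 (-0.15), Tnnc2 (-0.32), Myl4 (-0.25), Ttn (-0.13) and Chrng (-0.13). The cause was not tested.

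The change with stage in controls had 17 of 35 genes called with no filter, 22 of 29 with arrays centred on their medians and 20 of 29 without the 3 arrays. In mutants there were 24 of 29 centred and 20 of 29 without the 3 arrays. Most genes of the array were called in these fits too. With no filter 16289 of 18194 were called in controls. Of 11116, 10171 in controls and 10238 in mutants were called centred, and 9530 and 9399 without the 3 arrays. The medians of the muscle genes were 1.38 and 1.39 centred and 0.57 and 0.37 after quantile normalization, in controls and mutants. Centring turned the median of all genes to 1.12 and 1.23, and quantile normalization brought it to -0.04 and -0.03. Leaving out 1 replicate gave medians of -0.56 to -0.13 with 9 to 14 called in controls, and -0.68 to -0.23 with 9 to 14 called in mutants.

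With the replicate number as a block, 0 muscle genes were called at E13.5 (smallest adjusted p 0.64) and at E14.5 (0.27), with medians of 0.59 and 0.49. The block moved the count over all genes from 11 to 6 at E13.5, from 292 to 104 at E14.5 and from 13 to 3 for the difference between stages, but samples share only a number. Of the 8 same-numbered pairs 1 had its best match in its own number. With the arrays of each stage alone, the counts over all genes were 11 and 64.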
